A study of Mus musculus with 4 samples.

Results

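Immediate early genes are a set of genes that cells switch on within a short time of a stimulus, without first making new protein. The transcription factors among them are the EGR zinc finger proteins, the FOS and JUN proteins that pair as AP-1, the stress-induced ATF3, the regulator IER2 and the orphan nuclear receptor NR4A1. Their promoters are held ready by serum response factor with its ETS partners and by CREB, and growth factors, stretch, shear stress, injury and tissue handling all induce them. In the lung they are known from endothelium, smooth muscle, fibroblasts and leukocytes. The 10 genes described here, Egr1, Egr2, Egr3, Fos, Fosb, Jun, Junb, Atf3, Ier2 and Nr4a1, were taken by name, and all 10 were found among the 47729 genes listed and among the 18783 tested.

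RNA was sequenced from lungs of BL/6 mice of the control genotype, which the labels give as Rosa. The Sugen-hypoxia group, given the VEGF receptor inhibitor Sugen together with hypoxia, held 2 libraries, each a pool of 2 males by the sex entries of the labels. The normoxia group also held 2 libraries, a pool of 3 females (replicate 1) and a pool of 1 female and 2 males (replicate 2). Sex is therefore on the same side as treatment, Sugen was not given apart from hypoxia, and the KCNK3 mutant arm that the series is about was not analysed here. The labels used here state no age, dose or length of exposure, and they leave the tag MSX1 in the sample titles unexplained. Replicate numbers pair no samples, and p-values measure only the spread between these 4 pools.

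Gene counts summed to 57319562 and 65343196 reads in Sugen-hypoxia and 67135829 and 58224122 reads in normoxia. The extraction text names kidneys, whereas the source label is lung. The surfactant gene Sftpc was at 12416 and 11403 normalised CPM (read counts per 1e+06 gene reads after TMM scaling) in Sugen-hypoxia and 11564 and 11254 in normoxia. The kidney gene Umod was at 0 and 0.124 CPM in Sugen-hypoxia and at 0 in both normoxic pools, and the 13 kidney markers summed to at most 11.8 CPM in any library, of which Cdh16 made up at least 8.95. Xist, the X-inactivation RNA, was at 0.505 and 0.512 CPM in the male Sugen-hypoxia pools, 495 in the female and 149 in the mixed normoxia pool, as the sex entries have it. The Y-linked Ddx3y was at 110.9 and 104 CPM in Sugen-hypoxia and 0.190 and 57.1 in normoxia. In whole tissue, fewer cells of a type and less RNA per cell cannot be told apart.

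RefSeq promoter sequences (GRCm38.p6) were held for 7 of the 10 genes, with several starts for Egr2, while Egr1, Egr3 and Ier2 had no entry used here. The 250 bases before the start are printed for 4 of the 7 genes, Egr2 and Fos with higher means in Sugen-hypoxia and Fosb and Nr4a1 with lower ones. Of these only Egr2 passed the test between groups given below. Capitals mark matches on either strand to the CArG box (the serum response element core), the CRE core TGACG, the EGR site GCGNGGGCG, the ETS core CCGGAA and the TATA box TATAAA. TGACGTCA, the full CRE, which holds TGACG, and TGANTCA, the AP-1 site, were searched as well.
Egr2, chr10:67537619-67537868, plus strand: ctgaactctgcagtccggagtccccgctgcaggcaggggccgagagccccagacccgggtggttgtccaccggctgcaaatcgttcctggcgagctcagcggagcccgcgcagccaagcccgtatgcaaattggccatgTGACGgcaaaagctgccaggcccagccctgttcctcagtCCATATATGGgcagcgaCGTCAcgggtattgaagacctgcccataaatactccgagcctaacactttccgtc
Fos, chr12:85473640-85473889, plus strand: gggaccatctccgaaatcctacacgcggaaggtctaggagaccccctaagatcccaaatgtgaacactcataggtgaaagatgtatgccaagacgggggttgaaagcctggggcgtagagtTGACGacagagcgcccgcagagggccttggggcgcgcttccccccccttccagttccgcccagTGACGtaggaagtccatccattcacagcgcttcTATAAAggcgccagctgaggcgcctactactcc
Fosb, chr7:19310046-19310295, minus strand: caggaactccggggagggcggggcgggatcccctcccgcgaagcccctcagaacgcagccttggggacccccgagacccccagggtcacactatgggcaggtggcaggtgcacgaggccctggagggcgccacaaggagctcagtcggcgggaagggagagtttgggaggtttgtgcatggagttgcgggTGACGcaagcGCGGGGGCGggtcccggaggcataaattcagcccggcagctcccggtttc
Nr4a1, chr15:101266596-101266845, plus strand: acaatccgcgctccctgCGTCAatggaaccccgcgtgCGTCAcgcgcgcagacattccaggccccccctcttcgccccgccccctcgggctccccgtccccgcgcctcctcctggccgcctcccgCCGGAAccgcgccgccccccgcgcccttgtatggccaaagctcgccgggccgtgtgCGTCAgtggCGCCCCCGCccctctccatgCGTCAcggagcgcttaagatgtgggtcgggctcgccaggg

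The CArG box stood in the printed Egr2 window as CCATATATGG, 72 to 63 bases before that start. A match was in 4 of the 5 Egr2 windows, but these are not separate elements. The windows that start at 67537620 and 67537680 overlap the printed one and hold the same CCATATATGG. The window that starts at 67537316 holds CCTTTTTTGG instead. More windows were searched for Egr2 than for any other gene. The CArG box was in the window of no other of the 7 genes, and in 1.48% of all 32536 distinct windows of this length. Whether Egr1, left out of the search, holds one is not shown here. The CRE core was in a window of 6 of the 7 genes (Atf3, Egr2, Fos, Fosb, Junb and Nr4a1), against 17.9% of all windows. Nr4a1 carried it 4 times. The EGR site was in the windows of Fosb and Nr4a1 (4.74% of all windows), the ETS core in that of Nr4a1 and in an Egr2 window not printed (12.1%), and the TATA box in that of Fos (12.3%). The full CRE and the AP-1 site were in none (1.56% and 6.73% of all windows). These matches are letters in a window and say nothing of binding, and the window ends short of elements that lie farther upstream.

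Egr1 and Egr2 rose in Sugen-hypoxia, and they were the only 2 of the 10 genes that passed edgeR's quasi-likelihood test over all genes (2 higher, 0 lower). Among all genes tested 11.5% passed, 5.51% as higher and 6.01% as lower, so the count alone is not a result about these genes. At an unadjusted p below 0.05 there were 6 of the 10, against 30.1% of all genes tested. The 10 genes did not move as a block. Means were higher in Sugen-hypoxia for 7 and lower for 3, with a median log2 fold change of 0.42 against -0.00 over all genes tested. The groups did not overlap for 7 of the 10 (5 above, 2 below), where 61.7% of all genes had groups that did not overlap (30.0% above, 31.7% below). An exact permutation test of 2 libraries against 2 cannot give a two-sided p under 0.333.

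**Figure D1:**
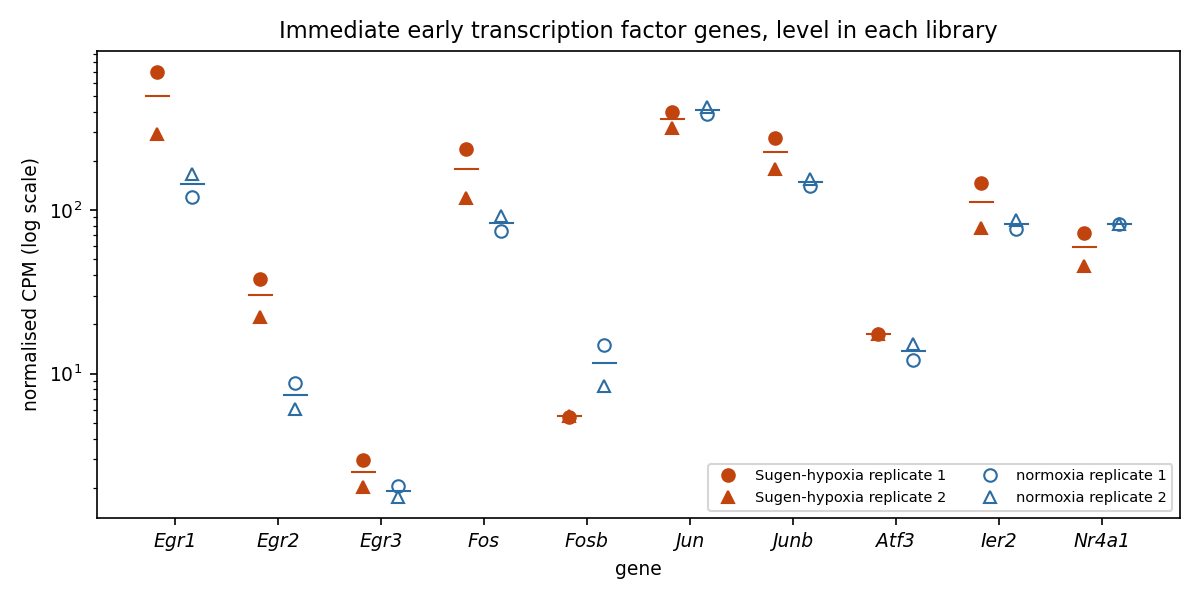
Normalised CPM (log scale) of the 10 genes in each library, with Sugen-hypoxia (filled) left of normoxia (open) and a line at each group mean. Egr1 and Egr2 stand apart between groups, Fosb lies lower in both Sugen-hypoxia pools, and Sugen-hypoxia replicate 1 lies above replicate 2 for most genes.

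Egr1 (ENSMUSG00000038418, GRCm38 chromosome 18, 34859823 to 34864984, plus strand) encodes a zinc finger activator that growth factors, shear stress and hypoxia are known to induce in vessels. It was at 698 and 291 CPM in Sugen-hypoxia and 121 and 166 CPM in normoxia. Both treated pools lay above both normoxic pools, but replicate 1 was 2.40-fold above replicate 2. The mean was 495 ± 288 CPM in Sugen-hypoxia and 143 ± 31.9 CPM in normoxia (SD, n = 2 each), a fold of 3.46 and a log2 fold change of 1.79 ± 0.41 (SE) with an edgeR adjusted p of 0.0491. That value lies close to the threshold. Without Sugen-hypoxia replicate 1 the log2 fold change was 1.03. Without normoxia replicate 1 or 2 it was 1.58 and 2.03, and the call was lost. With the male fraction of each pool as a covariate it was 1.35 (adjusted p = 0.651). The call was also lost with upper-quartile factors, limma-voom or a mean CPM filter (adjusted p = 0.0534, 0.0503 and 0.0501), with the log2 fold change at 1.68 or above.

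Egr2 (ENSMUSG00000037868, chromosome 10, 67535475 to 67542188, plus strand) encodes a related factor, known from nerve myelination and from activated T cells and macrophages. It was at 37.9 and 22.3 CPM in Sugen-hypoxia and 8.78 and 6.06 CPM in normoxia. The groups were separated by a wide gap, and again replicate 1 was the higher treated pool. The fold was 4.05, a log2 fold change of 2.02 ± 0.30 with adjusted p = 0.0170 in edgeR, the largest of the 10 genes. Without normoxia replicate 1 or 2 the log2 fold change was 2.32 and 1.77 and the call was lost, as it was with the male fraction as a covariate (2.58, edgeR adjusted p = 0.361).

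Egr3 (ENSMUSG00000033730, chromosome 14, 70077203 to 70082614, plus strand), another gene of the family, was at 2.94 and 2.03 CPM in Sugen-hypoxia and 2.05 and 1.77 CPM in normoxia. The groups overlap, and the log2 fold change of 0.38 ± 0.27 did not pass (edgeR adjusted p = 0.397). These levels stood on 106 to 163 reads per library, so that counting error weighs more here than for the other genes.

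Fos and Fosb, the FOS partners of AP-1, lay on opposite sides. Fos (ENSMUSG00000021250, chromosome 12, 85473890 to 85477273, plus strand) was at 236 and 119 CPM in Sugen-hypoxia and 74.7 and 91.8 CPM in normoxia. Both treated pools lay above both normoxic ones, yet the 2.13-fold difference (log2 1.09 ± 0.31) did not pass, with edgeR adjusted p = 0.0808. On the log2 scale it was 0.52 without Sugen-hypoxia replicate 1 and 1.51 without replicate 2. A fit with 1 treated pool takes its spread from the normoxic pools alone. The gap between the treated pools is then not in its p-value, which is not given here.

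Fosb (ENSMUSG00000003545, chromosome 7, 19302696 to 19310051, minus strand) was at 5.45 and 5.50 CPM in Sugen-hypoxia and 15.0 and 8.34 CPM in normoxia. Here the treated pools were almost equal and the normoxic pools differed, with the all-female pool highest and the mixed pool between it and the male treated pools. The log2 fold change was -1.09 ± 0.28 with edgeR adjusted p = 0.0623. It passed as lower with library size alone (adjusted p = 0.0494), with DESeq2 (0.00149) and with no filter on low counts (0.00157). With the male fraction of each pool as a covariate it was -0.19 (adjusted p = 0.851), so treatment and sex cannot be told apart for this gene. Without normoxia replicate 1, the all-female pool, it was -0.60.

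The JUN genes, whose proteins pair with FOS proteins or with each other, differed less. Junb (ENSMUSG00000052837, chromosome 8, 84974484 to 84978718, minus strand) was at 274 and 179 CPM in Sugen-hypoxia and 140 and 155 CPM in normoxia, without overlap, and its log2 fold change of 0.62 ± 0.20 did not pass (edgeR adjusted p = 0.101). Jun (ENSMUSG00000052684, chromosome 4, 95049034 to 95052222, minus strand) was at 399 and 317 CPM in Sugen-hypoxia and 388 and 423 CPM in normoxia. The groups overlap, and the value of -0.18 ± 0.12 had adjusted p = 0.375. Both genes share exon sequence with a gene on the other strand, Prdx2 for Junb and Junos for Jun. The counts used here are by strand, and with unstranded counts the log2 fold changes were 0.62 and -0.16.

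Atf3 (ENSMUSG00000026628, chromosome 1, 191170296 to 191218039, minus strand), a stress-induced factor of the ATF/CREB family, was at 17.5 and 17.5 CPM in Sugen-hypoxia and 12.1 and 15.2 CPM in normoxia. The treated pools were alike and both above normoxia, with a log2 fold change of 0.36 ± 0.13 that did not pass (edgeR adjusted p = 0.126). Ier2 (ENSMUSG00000053560, chromosome 8, 84661331 to 84662852, minus strand) was at 147 and 77.7 CPM in Sugen-hypoxia and 76.4 and 87.2 CPM in normoxia. Its higher mean came from replicate 1 alone, since replicate 2 lay inside the normoxic range. The log2 fold change of 0.45 ± 0.28 (edgeR adjusted p = 0.335) turned to -0.07 without that library.

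Nr4a1 (ENSMUSG00000023034, chromosome 15, 101254269 to 101274795, plus strand), known as a brake on smooth muscle growth and on inflammation in mice, was at 72.7 and 45.6 CPM in Sugen-hypoxia and 82.3 and 82.4 CPM in normoxia. Both treated pools lay below the 2 normoxic ones, which were almost equal. The log2 fold change of -0.48 ± 0.21 did not pass (edgeR adjusted p = 0.190), and it was -0.85 without Sugen-hypoxia replicate 1 and -0.18 without replicate 2. With the male fraction as a covariate it was -0.48.

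**Figure D2:**
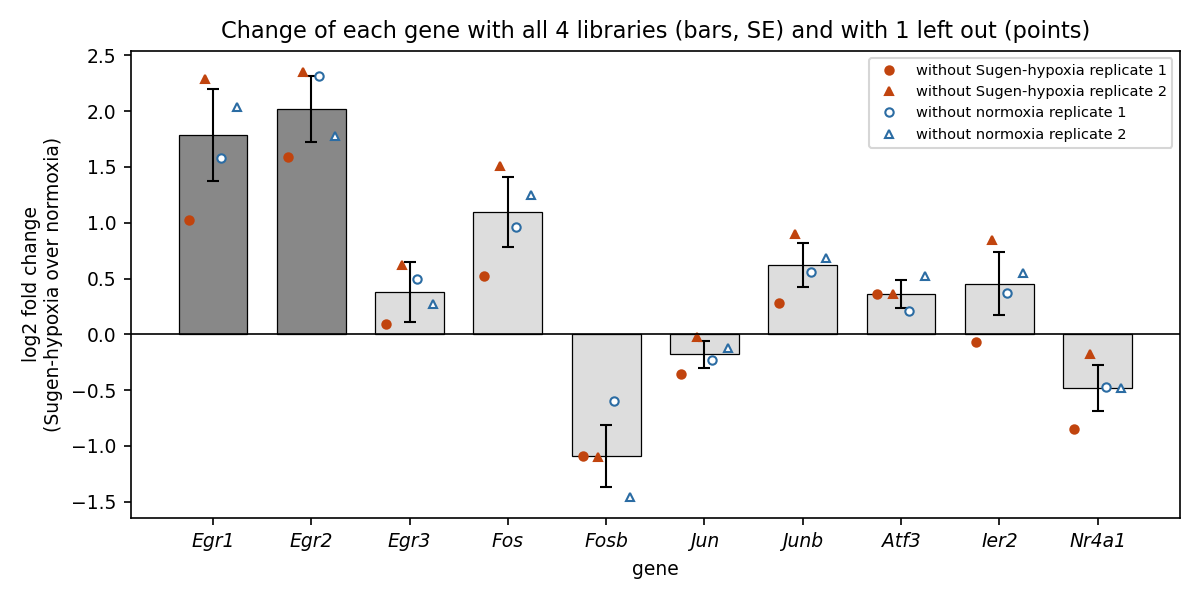
Log2 fold change of Sugen-hypoxia over normoxia for each gene, as bars with SE for all 4 libraries (dark where the edgeR adjusted p was below 0.05) and as points with 1 library left out. Egr1 and Egr2 stay above 1 and Fosb below -0.6 at every point, while Ier2 crosses 0 without Sugen-hypoxia replicate 1.

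The 2 treated pools differed from each other in a way shared by most of the genes. Sugen-hypoxia replicate 1 was the higher pool for 9 of the 10, and at least 1.5-fold higher for 6 (Egr1, Egr2, Fos, Junb, Ier2 and Nr4a1). Among the 14900 tested genes that averaged 1 CPM or more, 1.5% were that much higher in replicate 1. A ratio as high as that of Egr1 was reached by 0.0872% of those genes, that of Fos by 0.134% and that of Ier2 by 0.188%. Fosb and Atf3 were level, at 0.992-fold and 1.0-fold. Nr4a1 had the same pool order as Egr1 (1.60-fold) although its group means lay the other way round.

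Between the normoxic pools the pattern was different. Replicate 2 over replicate 1 was 1.37-fold for Egr1, 1.23-fold for Fos and 1.0-fold for Nr4a1, but 0.690-fold for Egr2 and 0.557-fold for Fosb. The Fosb gap was matched or passed, in either direction, by 0.691% of genes and the Egr2 gap by 2.39%.

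**Figure D3:**
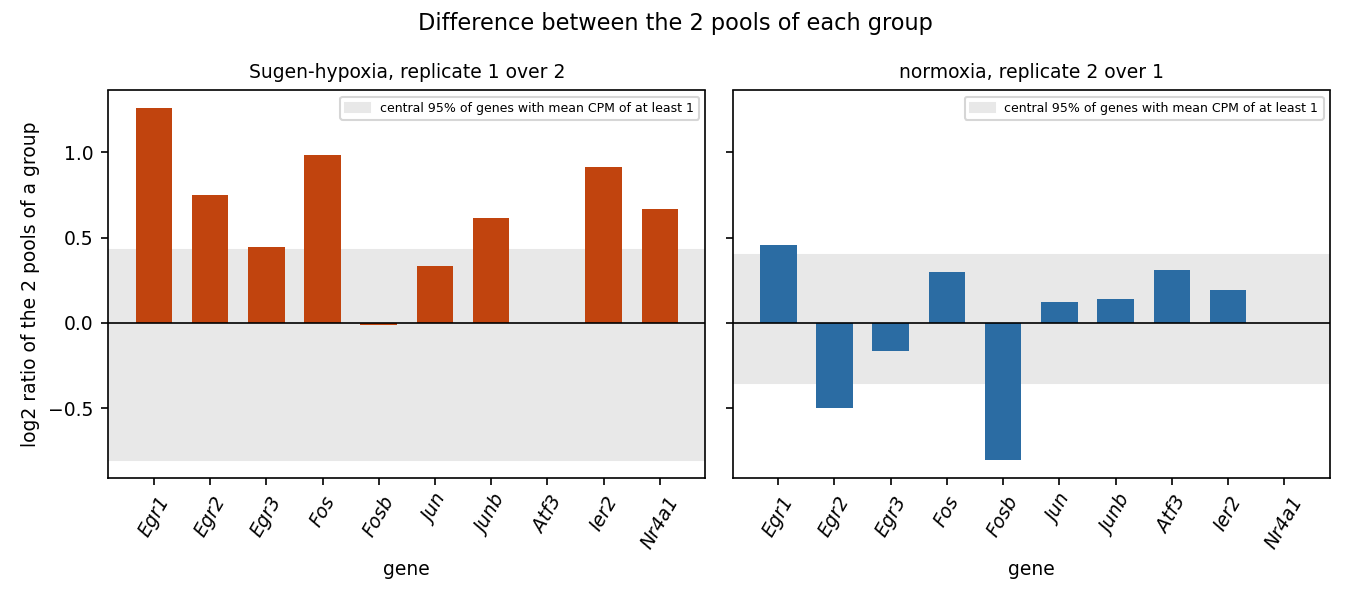
Log2 ratio between the 2 pools of a group for each gene, Sugen-hypoxia at left and normoxia at right, over a grey band that holds the central 95% of the 14900 genes. In Sugen-hypoxia 7 bars stand above the band, and in normoxia Egr1, Egr2 and Fosb lie outside it.

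Other markers moved with the same treated pool, and their part in these values was not tested. The 10 red cell and platelet markers summed to 847 and 368 CPM in Sugen-hypoxia and 364 and 418 CPM in normoxia, with 7 of 10 higher in replicate 1 and 5 of them at least 1.5-fold. All 10 endothelial markers were higher in replicate 1, none by 1.5-fold, with sums of 6405 and 5403 CPM in Sugen-hypoxia and 5120 and 5032 CPM in normoxia. Between groups 3 of them rose (Cdh5, Tie1 and Emcn) and 1 fell (Ramp2). The 8 heart muscle markers were all lower in replicate 1, with sums of 262 and 438 CPM in Sugen-hypoxia and 655 and 613 CPM in normoxia, and 1 of them passed the test between groups. Mitochondrial genes summed to 15717 and 16445 CPM in Sugen-hypoxia and 16350 and 15774 CPM in normoxia, and 0 of 8 passed. Heat shock genes summed to 2398 and 2345 CPM in Sugen-hypoxia and 1632 and 1601 CPM in normoxia. Their log2 fold changes were positive for 11 of 11, with a median of 0.62, and 5 passed as higher. In replicate 1, 0 of them were 1.5-fold higher than in replicate 2.

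Leukocyte markers moved between the groups, again with a part in the early gene values that was not tested. T and NK cell markers summed to 52.7 and 61.4 CPM in Sugen-hypoxia and 123 and 103 CPM in normoxia, and 10 of 12 fell. B cell markers fell in 9 of 10, with sums of 293 and 1154 CPM in Sugen-hypoxia and 1027 and 697 CPM in normoxia, where Ighm made most of the spread, at 168 and 1009 CPM in Sugen-hypoxia and 664 and 353 CPM in normoxia. Neutrophil markers fell in 6 of 10 tested, with sums of 271 and 260 CPM in Sugen-hypoxia and 436 and 579 CPM in normoxia. Macrophage and monocyte markers rose in 2 of 15 and fell in 1, with sums of 8499 and 11951 CPM in Sugen-hypoxia and 6548 and 6109 CPM in normoxia. Smooth muscle markers rose in 4 of 8, with sums of 1248 and 1328 CPM in Sugen-hypoxia and 896 and 992 CPM in normoxia, and fibroblast and pericyte markers rose in 2 of 9, with sums of 3863 and 5209 CPM in Sugen-hypoxia and 2699 and 2945 CPM in normoxia. Of these lists no gene was at 0 in all 4 libraries. Among the remaining lists, 1 of 14 lung markers fell, and of 7 skeletal muscle markers, with Myh4 at 0 throughout, 4 were tested and 1 rose.

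Levels were set side by side between genes only per length, as counts per kilobase of exon scaled to a sum of 1e+06 in each library (TPM). In Sugen-hypoxia Jun was at 368 ± 52.2 TPM, Egr1 at 360 ± 203, Junb at 322 ± 89.4, Fos at 246 ± 110 and Ier2 at 241 ± 100 (SD, n = 2). In both pools Jun lay above Junb, and Junb above Fos and Ier2, and the range of Jun overlapped neither that of Fos nor that of Ier2. Egr1 was above all of them in replicate 1 and between Junb and Ier2 in replicate 2, and Fos and Ier2 changed places between the pools. Nr4a1 followed at 55.1 ± 16.8, then Egr2 at 28.9 ± 10.04 and Atf3 at 26.6 ± 0.54, which overlap, Fosb at 2.88 ± 0.075 and Egr3 at 1.85 ± 0.44 TPM.

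In normoxia Jun led at 430 ± 32.9 TPM, followed without overlap by Junb at 216 ± 18.1 and Ier2 at 182 ± 19.9. Fos at 120 ± 19.3 and Egr1 at 108 ± 25.7 overlap. Nr4a1 was at 79.2 ± 1.31, Atf3 at 21.4 ± 3.72, Egr2 at 7.35 ± 1.79 and Fosb at 6.28 ± 2.43, the last 2 overlapping, and Egr3 was lowest at 1.46 ± 0.13 TPM. Egr1 had rank 1 of the 10 in Sugen-hypoxia replicate 1, rank 3 in replicate 2 and rank 5 in both normoxic pools. The level of Fos was 115 and 57.5 times that of Fosb in Sugen-hypoxia and 13.2 and 29.2 times in normoxia. The level of Egr1 was 7.51 and 5.0 times that of Nr4a1 in Sugen-hypoxia and 1.15 and 1.57 times in normoxia. Junb stood at 0.952 and 0.782 of the level of Jun in Sugen-hypoxia and 0.501 and 0.506 in normoxia.

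Likeness of pattern was measured as the Euclidean distance between log2 profiles over the 4 libraries, each centred on its own mean. Among the 10 genes the closest pair was Junb and Ier2 (distance 0.29), and the farthest were Egr2 and Fosb (2.95). Egr1 lay closer to Fos (0.69) than to Egr2 (0.81), and Nr4a1 lay closest to Jun (0.41). Of 13835 other protein-coding genes, those nearest to Egr1 were Gdf15, a stress-induced cytokine (0.34), Uchl1, a ubiquitin hydrolase (0.40), Arc, an early gene best known from neurons (0.45), Wfdc1 (0.52) and the homeobox gene Hoxd8 (0.53). Gdf15 was at 6.61 and 3.62 CPM in Sugen-hypoxia and 1.01 and 1.5 CPM in normoxia. Nearest to Fos were Colq, the collagen-like tail subunit of acetylcholinesterase (0.29), the adhesion gene Kirrel3 (0.34), the homeobox gene Msx1 (0.39), Mycn of the Myc family (0.42) and Reep1 (0.42). With 4 libraries many genes can lie this close, so the distances describe these libraries only.

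The genes around the 10 were read from 7 lists with 126 genes, 124 of them tested. Of these 23 were higher and 4 lower, or 21.8% against 11.5% of all genes, with a median log2 fold change of 0.17. All genes include more that are low in level. With a mean of at least 1 CPM, 28 of 122 list genes passed, against 2247 of 14900 genes. The lists were chosen with earlier results of these data known, so their share is no independent evidence. Without normoxia replicate 1, 0 of the genes passed, and without replicate 2 there were 2, with the cause not tested. The fold changes moved less than the calls: that of Ndrg1, at 0.98 on the log2 scale with all libraries, was 0.98 and 0.99 in these fits, and that of Ptgs2, at 1.01, was 0.78 and 1.28.

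Upstream of the early genes stand serum response factor, its partners, CREB family factors and the MAP kinases. Of 19 such genes 1 rose and 0 fell, with a median of 0.12. The gene that rose was Crem, a CREB family factor with activator and repressor forms, at 16.5 and 19.6 CPM in Sugen-hypoxia and 12.9 and 12.8 CPM in normoxia (log2 0.49 ± 0.11, edgeR adjusted p = 0.0466). Of 17 paralogs and partners tested, 2 rose and 0 fell, namely Ier5, of the Ier2 family, by 0.44 ± 0.05 and Mafg, a small MAF protein, by 0.31 ± 0.07 on the log2 scale. Egr4, the last EGR gene, was not tested and had at most 0.067 CPM in any library.

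Of 20 other early transcription factors and regulators, 4 rose and 0 fell, with a median log2 fold change of 0.27. Klf4, a factor of vessel wall and epithelium, was at 353 and 305 CPM in Sugen-hypoxia and 186 and 164 CPM in normoxia, a log2 fold change of 0.91 ± 0.10. Snai1, known from epithelial to mesenchymal transition, rose by 0.91 ± 0.09, the kinase gene Sgk1 by 0.80 ± 0.08 and Cebpb by 0.38 ± 0.08. Unlike Egr1 and Fos, these 4 had treated pools within 1.16-fold of each other or closer.

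The early effector list holds early genes outside the transcription factors, but not all of them. Others, such as Sgk1, Btg2 and Dusp1, stand in the lists of other early regulators and feedback genes. Of 21, 5 rose and 0 fell, with a median log2 fold change of 0.34. Areg, a ligand of the EGF receptor, rose by 1.29 ± 0.25 on the log2 scale. Ccn2, a matricellular protein known as a target of YAP and TGF-beta, was at 431 and 289 CPM in Sugen-hypoxia and 175 and 136 CPM in normoxia, higher by 1.21 ± 0.21. Ptgs2, the inducible cyclooxygenase, rose by 1.01 ± 0.16 and the stress sensor Gadd45g by 1.0 ± 0.13.

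Feedback genes, which damp the same pathways, moved both ways. Of 20, 2 rose and 2 fell, with a median log2 fold change of -0.00. The MAP kinase phosphatase genes Dusp2 and Dusp5 fell by 0.98 ± 0.17 and 0.80 ± 0.12 on the log2 scale, with Dusp5 at 10.4 and 8.97 CPM in Sugen-hypoxia and 17.8 and 15.97 CPM in normoxia. Spry4, an inhibitor of receptor tyrosine kinase signalling, rose by 0.51 ± 0.10. Nab1, a corepressor that binds EGR proteins, was at 129 and 128 CPM in Sugen-hypoxia and 105 and 104 CPM in normoxia, higher by 0.30 ± 0.05.

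Genes reported elsewhere as EGR targets rose in 4 of 15 cases and fell in 1, with a median of 0.13. Ndrg1 rose by 0.98 ± 0.12 and the matricellular Thbs1 by 0.69 ± 0.08, while the cell death gene Bcl2l11 fell by 0.37 ± 0.06 on the log2 scale. Ndrg1 is also known as a HIF target. Among 14 tested genes reported as AP-1 targets, 5 rose and 1 fell, with a median log2 fold change of 0.59.

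Of the AP-1 list the collagenase Mmp13 was at 3.39 and 11.6 CPM in Sugen-hypoxia and 0.439 and 0.501 CPM in normoxia, a log2 fold change of 4.0 ± 0.64 that was 4.63 without Sugen-hypoxia replicate 1 and 2.85 without replicate 2. The chemokine gene Ccl2 rose by 2.15 ± 0.35 and the protease gene Plau by 0.66 ± 0.10. Mmp9, a gelatinase that neutrophils carry, fell to 35.5 and 30.4 CPM in Sugen-hypoxia, against 72.7 and 82.1 CPM in normoxia. Of the neutrophil markers given above, 6 of 10 tested fell. The other way went 2 of them, the granule genes Mmp8 and Ltf, with log2 fold changes of 0.82 and 1.26 that did not pass. For Ltf the groups overlap, at 6.66 and 42.3 CPM in Sugen-hypoxia and 11.0 and 9.58 CPM in normoxia. Its higher mean came from replicate 2 alone. A link between Mmp9 and neutrophil number was not tested. These list members respond to many other factors, and the lists were chosen with earlier results of these data known.

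**Figure D4:**
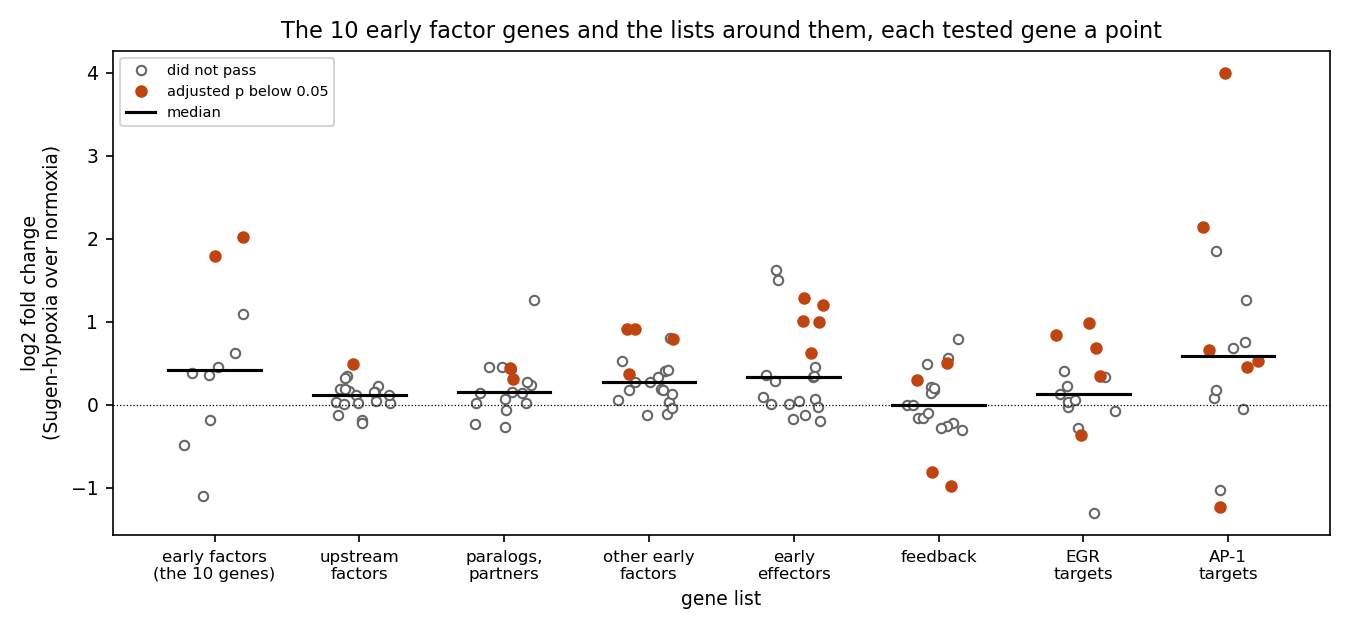
Log2 fold change of Sugen-hypoxia over normoxia for each tested gene of the 10 early factor genes and of the 7 lists around them, filled where the edgeR adjusted p was below 0.05, with the list median as a line. Medians lie between -0.00 for the feedback list and 0.59 for the AP-1 targets, and 0.42 for the 10 genes.

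The excess of Sugen-hypoxia replicate 1 reached some of these genes too, while others were higher in replicate 2. Among the 122 list genes that averaged 1 CPM or more, 6 were at least 1.5-fold higher in replicate 1 than in replicate 2. Over all genes at that level it was 223 of 14900. The 6 are Btg2, Arc, Ccn1, Dusp1, Zfp36 and Fasl, which are named here after their values were seen. Dusp1, a MAP kinase phosphatase, was at 486 and 238 CPM in Sugen-hypoxia and 261 and 254 CPM in normoxia. Zfp36, which promotes decay of early mRNAs, was at 337 and 201 CPM in Sugen-hypoxia and 188 and 174 CPM in normoxia. Btg2, an antiproliferative early gene, was at 418 and 224 CPM in Sugen-hypoxia and 245 and 235 CPM in normoxia. For Dusp1 and Btg2, as for Ier2, the second treated pool was no higher than the top of the normoxic range. The 6 genes are 1 direction only. Spp1, Timp1, Mmp13 and Socs3 were among those at least 1.5-fold higher in replicate 2, a direction for which the share of all genes was not counted. The lists differed in this: 17 of 20 feedback genes were higher in replicate 1, but only 2 of the AP-1 targets. Over all genes that averaged 1 CPM or more, the median ratio of replicate 1 to replicate 2 was 1.01. A replicate 1 excess over the lists as a whole was not tested.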

How the data were processed

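Deposited files held raw read counts per gene, 1 per library; STAR 2.5.1b, HTSeq and build GRCm38.p4 are named in the submitters' processing notes. The sources used here give neither the gene annotation nor the strandedness. The authors' counts antisense to read 1 (column 4) were 20.9 to 24.9 times those sense to it, and were used. Summary rows (21.0 to 22.1% of reads) were left out. Multimapping reads were not counted per gene, so near-identical copies (haemoglobin genes, for example) are undercounted. Symbols came from GENCODE mouse release 21, with 47310 of 47729 identifiers matched.

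Genes were kept by filterByExpr, scaled by TMM and tested with edgeR 4.0.16 (R 4.3.3), group as the only term, two-sided, adjusted by Benjamini-Hochberg over 18783 genes at 0.05. On simulated counts this fit recovered large changes with little bias, but the share of false calls lay well above the nominal threshold. An adjusted p just below 0.05 is therefore weaker evidence than it reads. Recovery of small changes is not given here. Standard errors derive from the F statistic. Alternatives were DESeq2 1.42.0, limma-voom 3.58.1, other scalings and filters, unstranded counts, autosomal genes, the male fraction as a covariate, and each library left out.

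The 10 genes and all lists were chosen with earlier results of these data known. From each list up to 4 genes past the threshold with the largest change and a mean of at least 1 CPM were named, plus the 5 nearest to Egr1 and to Fos by profile (0.5 CPM added). A gene that this rule names is not reported here.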

Additional observations from a re-analysis of the deposited data

How the results depend on the processing

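No paired analysis was possible because the labels number no replicates; numbers here follow record order. Of the 10 genes, 2 passed with all libraries, 1 with upper-quartile factors, limma-voom or a mean CPM of at least 1 (Egr2 each time), 6 with no filter on low counts and 0 with the male fraction in the fit (1 residual degree of freedom). With 1 library left out, 0 to 7 passed (0 without normoxia replicate 1 or 2, 7 and 6 without Sugen-hypoxia replicate 1 or 2). The count over the lists was 27, against 52 with no filter, 45 with DESeq2, 0 with the male fraction, and 0 to 71 with 1 library left out. Over all genes 2163 passed, against 3657 with no filter, 3248 with DESeq2, 11 with the male fraction, and 25 to 5101 with 1 library left out. The split of calls over all genes was 1035 higher and 1128 lower, 765 and 1584 with library size alone, and 799 and 1424 with upper-quartile factors. Ier2 was the 1 named gene to change sign, at -0.072 without Sugen-hypoxia replicate 1 and otherwise up to 0.84. Of the 25 named genes past the threshold, 25 lost the call with the male fraction or without normoxia replicate 1, and 23 without normoxia replicate 2. Other lost calls were Egr1 as given above, Crem and Mafg and Cebpb with library size alone or upper-quartile factors, Crem and Mmp13 with limma-voom, and Cebpb with unstranded counts. A fit without 1 library assumes that the lone library varies like the other group's pair. Its calls rest on the spread of that pair alone, so they do not measure how the lone library's group varies. The cause of these moves was not tested. Depth limits Egr3 most.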
